A study of Mus musculus with 6 samples.

Results

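The 41 genes described here lie around the Ercc1 locus on mouse chromosome 7, with Ercc1 itself left out. They were listed by name from that neighbourhood, and 36 other genes with a probe set lie between the outermost of them. On the array used, 40 of the 41 genes had a probe set (a group of short probes read out as 1 signal) annotated to that gene alone, out of 18193 genes with such a probe set. The exception was Snrpd2, a core protein of spliceosomal particles, whose only probe set is shared with another symbol, so no value is given for it. The 40 genes had 65 probe sets, of which 46 were above the floor of the deposited signals on at least 1 array (62.2% of all probe sets were), and all 46 are accounted for below.

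The study compared LSK cells, the lineage-negative, Sca-1+ and c-Kit+ fraction of bone marrow that holds haematopoietic stem cells and early progenitors, from Ercc1-deficient and Ercc1-proficient litter mates. All mice were F1 animals of C57BL/6 and FVB/n parents, and each group had 3 samples. The deficient samples were -/d, with 1 knockout allele and a second allele named d in the labels. The proficient samples of litters 1 and 2 were +/+, and that of litter 3 was +/d, so this control carried a d allele too. The mice of litter 1 were 22 weeks old, those of the other litters 20 weeks. Whether each sample was 1 mouse or a pool is not stated, so p-values measure only the spread between these samples.

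ERCC1 forms a structure-specific endonuclease with XPF that cuts DNA beside bulky lesions in nucleotide excision repair and also acts on interstrand crosslinks. Genes beside a targeted locus are inherited with its alleles, because recombination between close neighbours is rare. A chromosome segment from the strain or the stem cell line in which an allele was made can therefore differ between genotype groups, and a sequence difference in that segment can change the RNA of a gene or the pairing of that RNA with a probe. The strain origin of the DNA flanking the alleles is not stated in the labels. Such a segment and the loss of Ercc1 function both go with the genotype, so their parts in any difference below cannot be told apart.

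Signals are MAS5 values, an average of probe brightness scaled per array, and none was below 30, the floor. Between 52.3% and 58.6% of the 45037 probe sets of an array were at the floor. Differences are deficient minus proficient on the log2(signal + 30) scale, which understates the change of weak genes. They were tested with limma with litter as a block, over 22519 probe sets with a mean signal of at least 32.6, and a probe set is called at a Benjamini-Hochberg adjusted p under 0.05. The fit called 188 probe sets, 0.835% of those tested, 71 higher and 117 lower in deficient cells. With each array centred on its median the split was 193 higher and 139 lower. Fitted with no litter term, limma made 0 calls among the 22519, with 579 (2.57%) at an unadjusted p under 0.05, so each call below rests on the comparison within litters. Of 14 markers of LSK cells tested, Flt3, Hlf and Procr were called lower and none higher, and 6 were lower and 2 higher in every litter. Kit read 125, 95.8 and 92.2 in deficient litters 1, 2 and 3 against 231, 123.03 and 150.8, and Cd34 1370.3, 461 and 964 against 1449, 1079.8 and 1142. Both were lower in the deficient sample of each litter, and neither was called (adjusted p = 0.380 and 0.444 by limma).

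Ercc1 was read by 4 probe sets. The brightest gave 79.9, 34.5 and 44.9 in the deficient samples of litters 1, 2 and 3 and 128, 244 and 176 in the proficient ones. The groups did not overlap, and the difference was -1.36 (95% CI -1.92 to -0.80, SE 0.27, n = 3 litters, adjusted p = 0.0138 by limma with litter as a block, 0.9998 without it). The next probe set was at 30 on all deficient arrays against 33.4, 69.7 and 54.9, at least 1.68-fold higher in proficient cells, with adjusted p = 0.299 by limma. The remaining 2 were at the floor on all arrays. The array annotation used here does not place the probes relative to the disrupted parts of the gene.

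Genes around Ercc1 were above the floor on at least 1 array more often than all genes, but on all 6 arrays less often. By their brightest probe set, 32 of 40 were above the floor on at least 1 array, against 71% of all genes, and 12 of 40 on all 6 arrays, against 43.1% of all genes. The 12 were Cd3eap, Vasp, Opa3, Fbxo46, Sympk, Mypop, Trappc6a, Bloc1s3, Gemin7, Clptm1, Zc3h4 and Sae1. The 8 at the floor on all arrays were Relb (an NF-kB subunit), Apoc1 (an apolipoprotein), Gipr (the receptor of the gut hormone GIP), Bcam (a laminin-binding surface protein), Klc3 (a kinesin light chain), Rtn2 (a reticulon of the endoplasmic reticulum), Rsph6a (a radial spoke protein of sperm flagella) and Nkpd1 (a predicted NTPase). A signal at the floor gives only an upper bound, so no difference between groups could be measured for these genes.

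**Figure D1:**
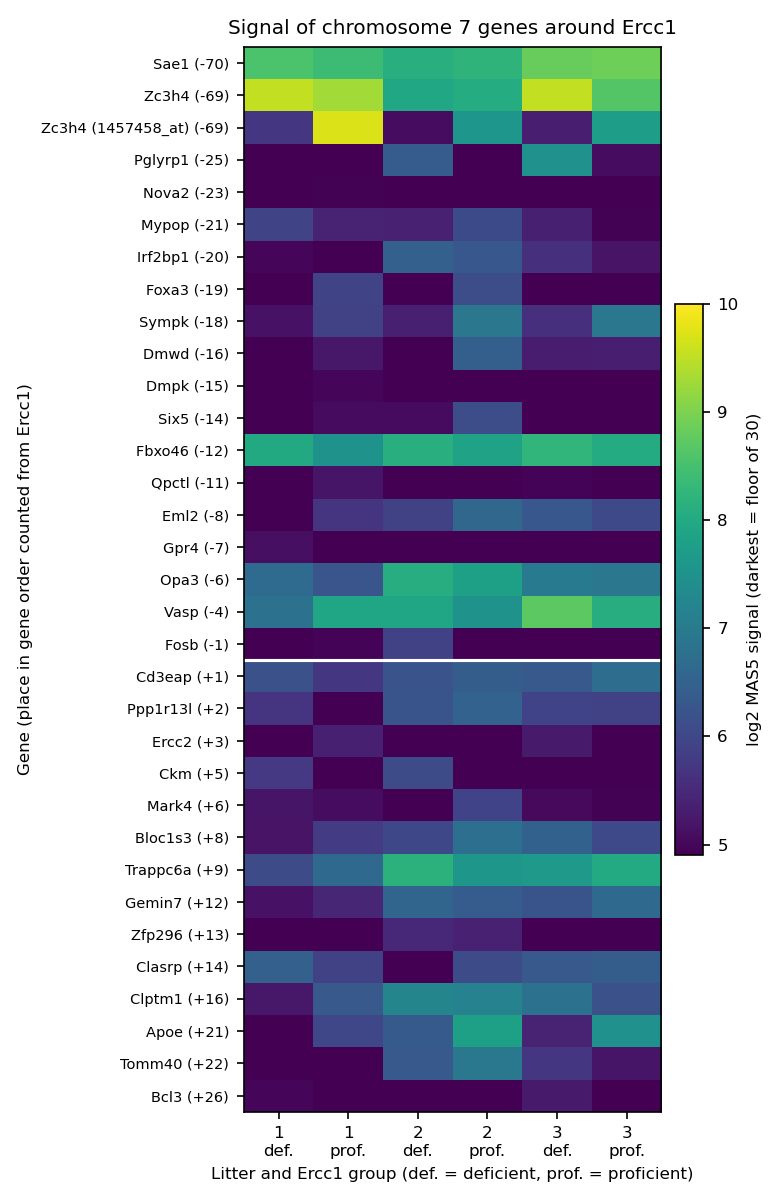
Signal on each of the 6 arrays (columns, grouped by litter) of the 32 genes above the floor, in chromosome order, as log2 of the MAS5 signal. Colours are to be compared within a row only, and the darkest colour is the floor of 30. The white line marks the place of Ercc1, and the row of Zc3h4 probe set 1457458_at is dark in all 3 deficient samples and bright in all 3 proficient ones.

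The filter on mean signal kept 27 of the 40 genes by their brightest probe set, beside 59.8% of all genes. Among the 38 tested probe sets of these 27 genes, 2 were called (5.26%, beside 0.835% of all probe sets tested), and both were lower in deficient cells: 1 of 2 probe sets of Zc3h4 and the probe set of Apoe. For lower calls alone the background was 0.52%. The genes were chosen with earlier results of these data known, so the excess over the background is only a description and was not tested. Zc3h4 and Sae1 lie 69 and 70 genes from Ercc1, while the other tested genes lie within 25. None of the 38 was called higher by limma with litter as a block (background 0.315%), and 2 had an unadjusted p under 0.05 in that direction. In all, 8 of 38 had an unadjusted p under 0.05, beside 11.5% of all tested probe sets. The groups did not overlap for 2 of 38, Zc3h4 and Sympk, both with the deficient samples lower, beside 7.19% of all probe sets tested (4.89% in that direction).

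Taken by the brightest probe set of each of the 27 genes, the neighbourhood as a whole lay close to the rest of the genome. The median difference was -0.05, with a range from -1.12 to 0.87, beside -0.02 over all tested genes. In litters 1, 2 and 3 the medians were 0.00, -0.09 and 0.02, beside 0.00, -0.05 and 0.00 over all tested genes. Opa3, Fbxo46 and Irf2bp1 were above their litter mates in all 3 litters, which is 11.1% of the 27 beside 12.6% of all tested genes. Dmwd, Sympk and Apoe were below in all 3 litters, again 11.1%, beside 17.9%. The 95% intervals had a median width of 0.46 to each side of the difference. A call asked for more, since p-values were adjusted over all tested probe sets. Differences of -0.83 in Sympk and 0.87 in Pglyrp1 were not called, so smaller ones could be missed.

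**Figure D2:**
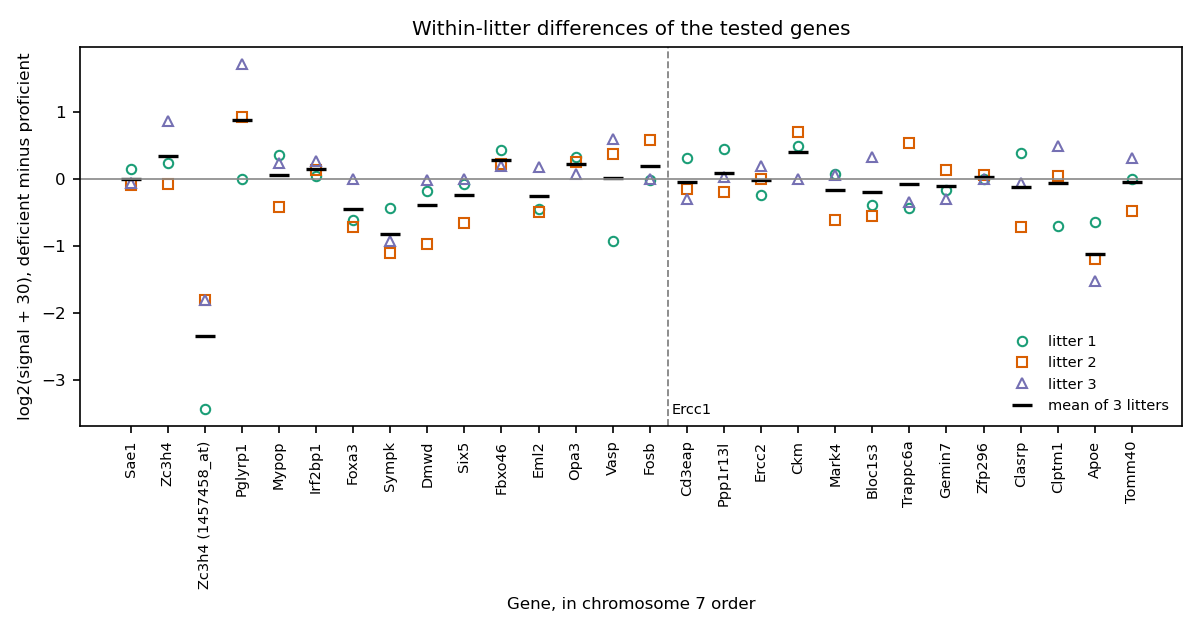
Difference between litter mates (deficient minus proficient, log2(signal + 30)) for the 27 tested genes and Zc3h4 probe set 1457458_at, in chromosome order. Symbols are the 3 litters and bars their mean. Only Zc3h4 probe set 1457458_at and Apoe have a mean below -1, with all 3 litters below 0.

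The promoters of 4 genes are shown here because these genes gave the results that the comparison turns on: the 2 called genes, then Sympk, the other gene without overlap, and Pglyrp1, the gene with the highest difference. Each is the 250 bases before a transcription start, 5′ to 3′ on the strand of the gene, from RefSeq, build GRCm38.p6. Apoe has 3 starts there, and the window shown is the one with the most CG. Capitals mark CG dinucleotides, the pairs at which cytosine can be methylated and which cluster in promoters of widely expressed genes. The windows are chr7:16400946-16401195 (+ strand) for Zc3h4, chr7:19698399-19698648 (- strand) for Apoe, chr7:19024127-19024376 (+ strand) for Sympk and chr7:18884440-18884689 (+ strand) for Pglyrp1.
Zc3h4: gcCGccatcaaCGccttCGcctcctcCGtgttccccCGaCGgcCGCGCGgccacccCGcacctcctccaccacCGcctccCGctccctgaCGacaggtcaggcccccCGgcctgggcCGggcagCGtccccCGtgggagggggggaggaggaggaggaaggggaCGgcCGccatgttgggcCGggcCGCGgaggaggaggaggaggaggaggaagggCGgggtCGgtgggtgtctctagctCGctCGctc
Apoe: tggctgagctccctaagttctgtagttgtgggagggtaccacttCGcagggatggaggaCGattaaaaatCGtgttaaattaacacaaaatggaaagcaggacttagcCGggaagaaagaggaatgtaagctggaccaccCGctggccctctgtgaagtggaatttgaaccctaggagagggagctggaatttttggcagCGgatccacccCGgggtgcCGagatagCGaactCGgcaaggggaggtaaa
Sympk: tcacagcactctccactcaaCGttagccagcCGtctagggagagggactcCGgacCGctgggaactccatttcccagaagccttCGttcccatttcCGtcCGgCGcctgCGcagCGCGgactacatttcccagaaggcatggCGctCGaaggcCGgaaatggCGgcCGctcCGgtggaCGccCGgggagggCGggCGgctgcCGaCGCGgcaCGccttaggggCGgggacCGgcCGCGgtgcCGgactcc
Pglyrp1: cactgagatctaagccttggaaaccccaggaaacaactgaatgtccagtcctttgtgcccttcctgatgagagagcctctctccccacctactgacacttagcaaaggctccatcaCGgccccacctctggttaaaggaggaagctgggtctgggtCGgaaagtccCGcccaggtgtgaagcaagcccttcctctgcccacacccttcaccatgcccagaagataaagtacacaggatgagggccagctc
The letters CG, which read the same on both strands, occur 26 times in the Zc3h4 window, 10 times in that of Apoe, 30 times in that of Sympk and 3 times in that of Pglyrp1. At least 1 CG was present in 97.2% of 14452 such windows, and at least as many as in Sympk in 10.5% and as in Zc3h4 in 16.5%. The Apoe count was reached by 62.6% of windows and the Pglyrp1 count by 88%.

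Zc3h4 encodes a zinc finger protein that restrains the transcription of short non-coding RNAs. Its 2 probe sets gave different results. Probe set 1457458_at read 52.4, 33.8 and 40.2 in deficient litters 1, 2 and 3, a mean of 42.2 ± 9.47 (SD, n = 3), against 853, 192 and 216 in their proficient litter mates, a mean of 420.3 ± 375. Every deficient sample was close to the floor and below every proficient one, and the proficient sample of litter 1 stood above the other two. The proficient signal was 16.3, 5.67 and 5.37 times that of the deficient litter mate in litters 1, 2 and 3. The proficient sample of litter 3, which carries a d allele, read 216, and the +/+ samples of litters 1 and 2 read 853 and 192. With 1 such sample, the part of the d allele was not tested. The difference was -2.34 (95% CI -2.93 to -1.75, SE 0.28), called with adjusted p = 9.87e-05 by limma with litter as a block, and it ranked 7 of 22519 by p-value and 2 by how far it lay below 0.

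The other Zc3h4 probe set, 1434459_at, was the brighter of the pair. It read 746, 249 and 745 in the deficient samples and 629.6, 266 and 398 in the proficient ones. The groups overlapped, and litter 2 went against the other two. The difference was 0.34 (95% CI -0.15 to 0.82, SE 0.23), not called, with adjusted p = 0.628 by limma. Within an array, probe set 1457458_at stood at 7.03%, 13.6% and 5.40% of 1434459_at in deficient litters 1, 2 and 3, and at 135%, 72.2% and 54.4% in the proficient ones. This ratio did not overlap between the groups, so the 2 signals differed unequally between the groups. The gap between their differences, 2.68, was the widest of the 4647 genes with at least 2 tested probe sets, whose median gap was 0.29. The positions and sequences of the probes were not used here, so which part of the transcript each probe set reads was not examined. The call on 1457458_at had adjusted p between 1.80e-08 and 0.00914 under the other scalings, pseudocounts, stricter filters and variance settings. It was not called with no filter on low signals (0.942), without the litter term (0.9998), or without any 1 litter, where the difference lay between -2.62 and -1.80 and adjusted p between 0.310 and 0.718.

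**Figure D3:**
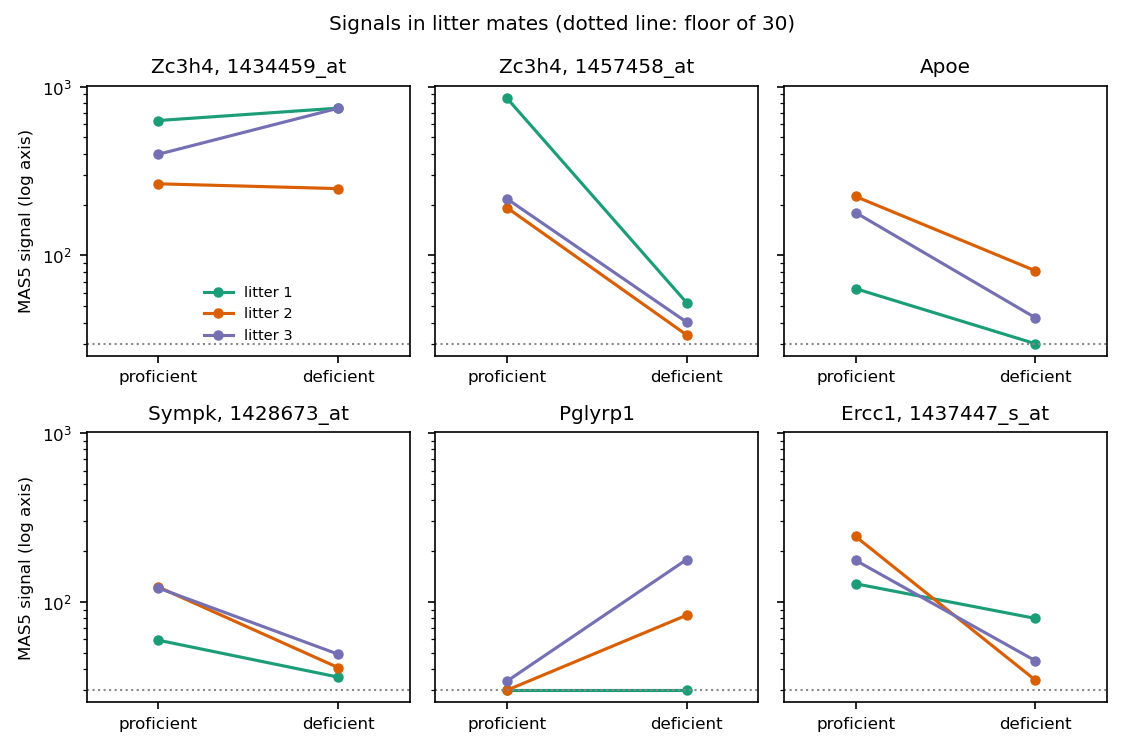
MAS5 signal (log axis) of the proficient and the deficient litter mate, joined by a line per litter, for both Zc3h4 probe sets, Apoe, Sympk, Pglyrp1 and Ercc1. Lines are to be compared within a panel, and the dotted line is the floor of 30. All 3 lines descend for Zc3h4 1457458_at, Apoe, Sympk and Ercc1, while in Zc3h4 1434459_at and Pglyrp1 they do not share a direction.

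Apoe, the lipid carrier of lipoproteins that macrophages make in abundance, read 30, 81.2 and 42.8 in deficient litters 1, 2 and 3 (mean 51.3 ± 26.6, SD) and 63.5, 223 and 179 in the proficient ones (mean 155 ± 82.6). The deficient sample was the lower in each litter, but the groups overlapped, since deficient litter 2 was above proficient litter 1. The proficient signal was 2.12, 2.75 and 4.19 times the deficient one. The difference was -1.12 (95% CI -1.62 to -0.61, SE 0.24, adjusted p = 0.0249 by limma with litter as a block). Under the alternatives adjusted p lay between 0.0128 and 0.9998. The call was lost with quantile normalization (0.0578), with no filter, without the litter term and without any 1 litter, where the difference lay between -1.36 and -0.91.

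RNA from a sorted population is a bulk sample, in which fewer cells of a type and less RNA per cell cannot be told apart. Of 13 macrophage markers, 7 were tested and limma with litter as a block called none, with 1 at an unadjusted p under 0.05. Their median difference was 0.17, and C1qa, C1qc, Spic and Marco were at the floor on all arrays. The summed signal of the macrophage markers was 848, 1373 and 1532 in deficient litters 1, 2 and 3 and 673, 1293 and 1138 in proficient ones, the higher in the deficient sample of each litter. Of the 7 tested, 3 were higher in every litter and 0 lower in every litter. The part of macrophage RNA in the Apoe values was not tested. Tomm40, the channel of the mitochondrial outer membrane and the next gene after Apoe in the order, read 30, 79.9 and 52.7 against 30, 122 and 36.6, with a difference of -0.05 and adjusted p = 0.939. Its partners in mitochondrial protein import had a median of 0.18, with 0 of 11 called and 1 at an unadjusted p under 0.05.

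Sympk encodes symplekin, the scaffold of the machinery that cleaves and polyadenylates messenger RNA. Probe set 1428673_at read 35.8, 40.8 and 49.0 in the deficient samples (mean 41.9 ± 6.65) and 59.3, 122 and 121 in the proficient ones (mean 101 ± 36.0). Every deficient value was below every proficient one, with proficient over deficient ratios of 1.65, 2.999 and 2.46. The difference of -0.83 (95% CI -1.28 to -0.37, SE 0.22) was not called, with adjusted p = 0.0912 by limma, the nearest to the threshold among the uncalled. It was called with adjusted p = 0.0473 when probe sets had to be above the floor on all arrays of a group, a filter chosen after seeing the data, and had adjusted p between 0.0795 and 0.9998 under the other alternatives. A weaker Sympk probe set, 1459000_at, read 45.4, 30 and 39.0 against 30, 47.2 and 30, a difference of 0.06. None of 14 other cleavage and polyadenylation genes was called by limma or had an unadjusted p under 0.05, and their median was -0.10.

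The remaining genes of RNA processing gave no call. Clasrp, a partner of splicing kinases, read 88.0, 30 and 80.1 in deficient litters 1, 2 and 3 against 60.01, 68.2 and 85.1. Gemin7, part of the SMN complex that assembles Sm proteins on small nuclear RNA, read 35.5, 94.8 and 75.3 against 43.8, 83.6 and 100.01. In both genes the groups overlapped and the litters disagreed, with differences of -0.13 and -0.11. The Sm proteins and SMN partners had a median of 0.06 with 0 of 10 called and 1 at an unadjusted p under 0.05 by limma. Nova2, a splicing regulator of neurons, was above the floor on 1 array only, at 30.5 in proficient litter 1, and was not tested.

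Pglyrp1, a bactericidal protein of neutrophil granules that binds bacterial peptidoglycan, had the highest difference among the genes. It read 30, 83.4 and 178 in deficient litters 1, 2 and 3 (mean 97.2 ± 75.1) and 30, 30 and 33.9 in the proficient ones (mean 31.3 ± 2.27). The signal was above the litter mate in litters 2 and 3, and in litter 1 both were at the floor. The difference of 0.87 (95% CI 0.37 to 1.38, SE 0.24) was not called, with adjusted p = 0.108 by limma. With each array centred on its median it was 0.96 and called (adjusted p = 0.00823), and under the other alternatives adjusted p lay between 0.0872 and 0.9998.

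Markers of neutrophils and their precursors were also higher in deficient cells. Their sum was higher in litter 1 too, where Pglyrp1 was at the floor in both samples. By limma with litter as a block, 8 of 14 tested were called higher in deficient cells and none lower, with Camp, Ngp, S100a8, S100a9, Chil3, Prtn3, Ctsg and Fcnb the 8, and 12 were higher in every litter. Their median difference was 1.63, with Mmp8 at the floor on all arrays. Their summed signal was 18585, 67788.5 and 116596 in deficient litters 1, 2 and 3 and 4087, 23117 and 36358 in proficient ones, so the deficient sample was the higher in each litter. Within each group both this sum and Pglyrp1 were highest in litter 3. The part of these markers in the Pglyrp1 values was not tested.

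The neighbourhood also holds genes best known from muscle. Ckm, the creatine kinase of muscle, was at the floor on all proficient arrays and on the deficient array of litter 3 for both of its probe sets. Probe set 1417614_at read 53.9 and 66.95 in deficient litters 1 and 2, which is 1.80 and 2.23 times the floor. Probe set 1444643_at read 77.65 and 38.1 there, which is 2.59 and 1.27 times the floor. Neither was called, with differences of 0.39 and 0.34 and adjusted p of 0.358 and 0.453 by limma. Dmpk, the kinase whose repeat expansion causes myotonic dystrophy, was above the floor only in proficient litter 1, at 31.6, and was not tested. Of 12 skeletal muscle markers 8 were at the floor on all arrays (Myh1, Myh2, Myh4, Tnnt3, Tnnc2, Myl1, Actn3 and Pvalb). The other 4 were above it in some samples. Atp2a1 read 41.7 and 40.3 in deficient litters 1 and 2, where Ckm was above the floor too, and 31.6 in proficient litter 1. Mb read 45.4 and Acta1 34.0 in deficient litter 1, and both were at the floor elsewhere. Mylpf was at the floor in litter 1 and read 173 and 68.6 in deficient litters 2 and 3 against 118 and 72.9. The part of these markers in the Ckm values was not tested. The summed signal of the 12 lay between 391 and 513 in deficient and between 362 and 448 in proficient samples.

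The closest neighbours of Ercc1 gave no call. Fosb, a partner of JUN in the AP-1 factor and the gene next to Ercc1 on one side, was above the floor in 2 samples, 59.2 in deficient litter 2 and 30.9 in proficient litter 1, with a difference of 0.18 and adjusted p = 0.696. Rtn2, beyond it, was at the floor throughout. Cd3eap, an RNA polymerase I subunit on the other side, read 71.7, 74.2 and 80.9 against 52.5, 85.3 and 106. The Cd3eap groups overlapped and its litters went both ways, with a difference of -0.05 (95% CI -0.53 to 0.43) and adjusted p = 0.951. Ppp1r13l, the p53 inhibitor iASPP, read 51.2, 75.5 and 61.3 against 30, 90.5 and 60.03 by its brightest probe set, a difference of 0.09 (adjusted p = 0.902). Its other tested probe sets gave -0.10 and -0.27, the second lower in each deficient sample (adjusted p = 0.612 by limma).

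Ercc2 encodes XPD, the helicase of the repair and transcription factor TFIIH, and lies 3 genes from Ercc1. It read 38.5 in deficient litter 3, 41.1 in proficient litter 1 and the floor on the other 4 arrays, a difference of -0.02 (95% CI -0.32 to 0.28, adjusted p = 0.970 by limma). Of the other TFIIH genes, 0 of 8 were called, 1 had an unadjusted p under 0.05, and the median was 0.17. RNA polymerase I genes had a median of -0.10 with 0 of 13 called and none at an unadjusted p under 0.05. The AP-1 and immediate early genes had a median of -0.22 with 0 of 10 called and 3 at an unadjusted p under 0.05.

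Among the transcriptional regulators, none was called. Foxa3, a forkhead factor of liver and gut, was at the floor in all deficient samples and read 61.7, 69.1 and 30 in the proficient ones. The proficient signals of litters 1 and 2 were 2.06 and 2.30 times the floor. The difference of -0.45 (95% CI -0.80 to -0.09) had adjusted p = 0.303 by limma. Six5, a homeobox factor, read 30, 33.1 and 30 against 33.5, 69.4 and 30, a difference of -0.25. Irf2bp1, a corepressor bound to IRF2, read 31.8, 88.0 and 49.3 against 30, 77.9 and 36.2, above its litter mate each time but by little, with a difference of 0.14 (95% CI -0.24 to 0.53). Mypop, a repressor related to MYB, read 62.0, 41.4 and 40.8 against 42.1, 65.9 and 30.4 by its brighter probe set. Its litters disagreed, with differences of 0.05 and 0.09 by its 2 probe sets. Zfp296, a zinc finger protein, was above the floor only in litter 2, at 44.7 in the deficient and 41.7 in the proficient sample.

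The NF-kB genes of the region were at or near the floor. Relb, the subunit of the non-canonical pathway, was at 30 on all arrays, and Bcl3, an IkB protein that acts in the nucleus with p50 and p52, read 31.4 in deficient litter 1, 38.8 in deficient litter 3 and 30 elsewhere. Of 11 other NF-kB pathway genes tested, 1 was called, and their median was -0.11. The called gene was Nfkbiz, another nuclear IkB protein, at 479.7, 208 and 239.7 in deficient litters 1, 2 and 3 against 1506, 378 and 418. All 3 litters were lower in deficient cells, although deficient litter 1 was above proficient litters 2 and 3, and the difference was -1.03 (SE 0.23, adjusted p = 0.0332 by limma with litter as a block). Its gene lies outside the span of the region described here.

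The brighter genes of cell structure, membrane traffic and protein modification gave no call. Sae1, a subunit of the enzyme that activates SUMO, read 374, 277 and 449 in the deficient samples and 335, 297 and 471 in the proficient ones by its brightest probe set. The groups overlapped, with means of 367 ± 85.8 and 368 ± 91.5, and the 95% CI of the difference ran from -0.46 to 0.45. Its other tested probe sets gave 0.22 and -0.47 (adjusted p = 0.710 and 0.447), and a further one reached only 37.1 and 35.7, in deficient litters 1 and 3. Other SUMO genes had a median of -0.12 with 0 of 10 called and 1 at an unadjusted p under 0.05 by limma.

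Fbxo46, a substrate receptor of SCF ubiquitin ligases, read 256, 274 and 306 against 183, 231 and 264. The deficient sample was the higher in each litter, the groups overlapped, and the difference of 0.28 (95% CI -0.18 to 0.74, SE 0.22) had adjusted p = 0.681. Vasp, which promotes actin filament elongation, read 113, 242 and 421 against 242, 180.4 and 269.8. Vasp was lower in deficient cells in litter 1 and higher in litters 2 and 3, which left a mean difference of 0.01 (95% CI -0.54 to 0.56). Its partners in actin assembly had a median of 0.06, with 0 of 10 called and 4 at an unadjusted p under 0.05 by limma. Over all 11 lists of pathway partners, 13 of 116 tested genes had an unadjusted p under 0.05. That is near the 11.5% of all tested probe sets, so the count of a single list is not read further.

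Trappc6a, of the TRAPP tethering complex, read 67.0, 291 and 199 against 101, 193 and 260.4, a difference of -0.08 (95% CI -0.59 to 0.43). Bloc1s3, of the BLOC-1 complex that sorts cargo to lysosome-related organelles, lies head to head with it: their 300-base windows around the start overlap by 201 bases. Bloc1s3 read 36.2, 64.3 and 89.3 against 56.5, 108 and 65.0, a difference of -0.20. In both genes litter 1 was lower in the deficient sample, while litters 2 and 3 went opposite ways in each gene and opposite between the genes. The other TRAPP genes had a median of 0.03 with 0 of 13 called and none at an unadjusted p under 0.05, and the other BLOC-1 genes a median of -0.09 with 0 of 6 called and 1 at an unadjusted p under 0.05.

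Opa3, a mitochondrial protein mutated in optic atrophy, had 4 probe sets above the floor. The brightest read 102, 270.4 and 129.8 against 76.1, 223 and 122, a little higher in each deficient sample, with a difference of 0.21 (95% CI -0.27 to 0.70). Probe set 1434886_at read between 97.6 and 134 on all 6 arrays, with a difference of 0.01. Probe set 1447724_x_at went the other way, 53.6, 30 and 65.4 against 54.9, 104 and 114, with a difference of -0.59 (95% CI -1.08 to -0.10, unadjusted p = 0.0198, adjusted p = 0.323 by limma). The weakest probe set above the floor reached at most 50.1 and gave -0.12. The spread between the Opa3 probe sets, 0.81, ranked 217 of 4647 genes, and that of Sympk, 0.88, ranked 147, both far from the gap of Zc3h4.

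The other genes of this kind were weaker. Clptm1, a membrane protein of the endoplasmic reticulum, read 37.5, 149 and 113 against 80.02, 144 and 72.1, with a difference of -0.06. Eml2, a microtubule-binding protein, read 30, 59.6 and 78.5 against 51.6, 96.5 and 65.6, with a difference of -0.25. Mark4, a kinase of microtubule-associated proteins, read 36.6, 30 and 32.9 against 33.5, 61.4 and 30.4 by its brighter probe set, a difference of -0.16, and its other one reached 34.0 in deficient litter 1 only. For these 3 genes the groups overlapped and no probe set was called. Dmwd, a WD-repeat protein next to Dmpk, read 30, 30 and 39.2 against 37.9, 87.5 and 40.2, a difference of -0.39 carried mainly by litter 2 (unadjusted p = 0.0488, adjusted p = 0.433 by limma). A second Dmwd probe set reached 33.0 in deficient litter 2 only. Gpr4, a proton-sensing receptor, reached 34.9 in deficient litter 1 only, and Qpctl, a glutaminyl cyclase of the Golgi, read 31.1 in deficient litter 3 and 36.9 in proficient litter 1. Neither passed the filter on mean signal.

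Counts called by distance from Ercc1 are given beside 0.835% of all probe sets tested. At that share few or no calls would fall in groups this small, so no pattern with distance can be read from them. Counting protein-coding genes from Ercc1, Apoe is 21 genes away on one side and Zc3h4 69 genes away on the other. Among tested probe sets of genes within 10 places on either side, 0 of 18 were called by limma with litter as a block, 2 had an unadjusted p under 0.05, and the median difference was -0.06. From 11 to 30 places 1 of 23 was called (Apoe), from 31 to 70 places 1 of 25 (Zc3h4), and from 71 to 150 places 0 of 44, with 6 of the 44 at an unadjusted p under 0.05. Sae1, the direct neighbour of Zc3h4, was not called by any probe set.

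Other genes between the outermost of those described are set beside them, as what the choice of genes left out. Most of their tested probe sets lie 31 to 68 genes from Ercc1. That stretch, between Pglyrp1 at 25 and Zc3h4 at 69, holds none of the genes described. Of the 26 tested probe sets from 19 such genes, 0 were called by limma with litter as a block. In all, 4 of the 26 had an unadjusted p under 0.05, and the median was 0.02. Tmem160, the neighbour of Zc3h4 on its other side, read 132, 837 and 491 in deficient litters 1, 2 and 3 against 72.1, 405 and 425. Tmem160 was higher in the deficient sample of each litter. Its difference of 0.62 was not called (unadjusted p = 0.0135, adjusted p = 0.282 by limma). Ppp5c, a protein phosphatase 50 genes from Ercc1, read 45.7, 124 and 87.7 against 58.8, 429 and 224 by the probe set of it with the lowest difference, chosen after its values were seen. That difference was -0.97 (95% CI -1.51 to -0.43, adjusted p = 0.0943 by limma), while the other Ppp5c probe sets gave -0.59 and 0.09 (adjusted p = 0.340 and 0.899). On the rest of chromosome 7 the share called was 0.937% of 1174 probe sets, and on the other chromosomes 0.81% of 17398.

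**Figure D4:**
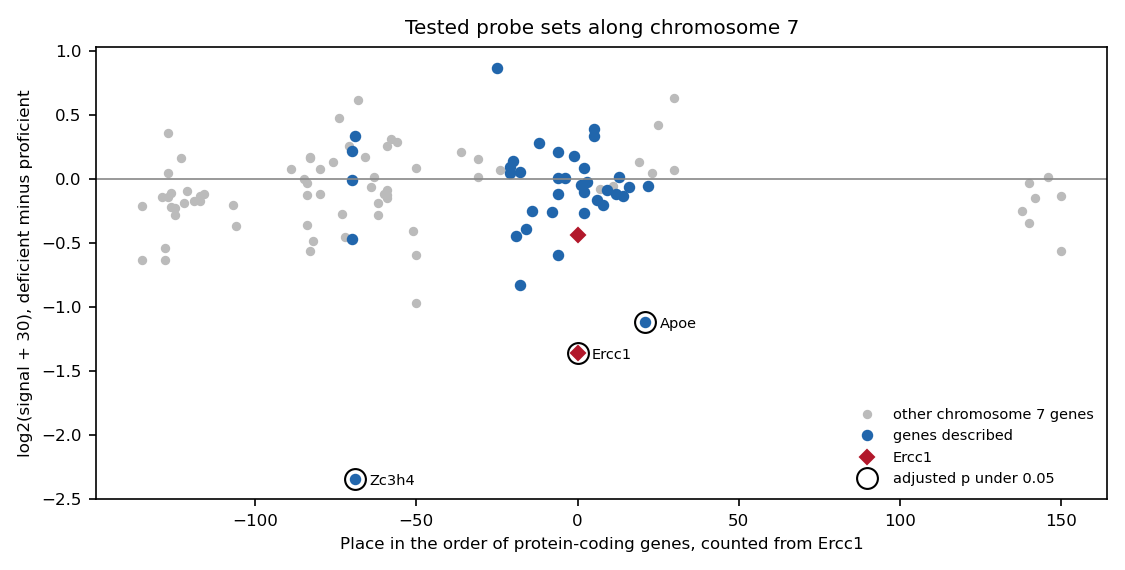
Difference (deficient minus proficient, log2(signal + 30)) of each tested probe set within 150 genes of Ercc1, by place in the order of protein-coding genes. Blue points are the genes described, grey points other genes, red diamonds Ercc1, and rings mark an adjusted p under 0.05. The only rings are on Ercc1, Apoe at 21 and Zc3h4 at -69, with uncalled probe sets between them.

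Promoter CG content was set beside detection, which the choice of genes did not use. Of the 41 genes 35 had a RefSeq promoter entry, 34 of them with a probe set; Mark4, Relb, Sae1, Gipr, Qpctl and Apoc1 were not matched. The 34 windows held a median of 14.5 CG, from 1 in Dmpk to 35 in Opa3, beside 14 over 14452 genes. Genes above the floor on all arrays had a median of 21 (n = 11, all genes 18), those above it on some arrays 14 (n = 18, all genes 12), and those at the floor on all arrays 13 (n = 5, all genes 5). Bcam, with 22 CG, was at the floor, and Vasp and Fbxo46, with 12 each, were above it on all arrays, so the classes overlapped. Where a gene had several starts, the window with the most CG was taken.

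**Figure D5:**
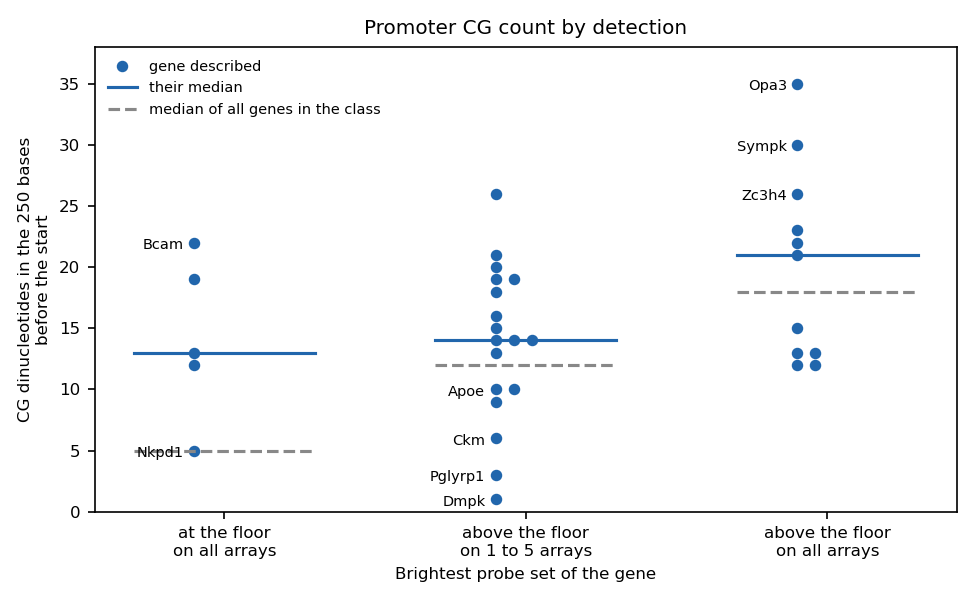
CG dinucleotides in the 250 bases before the start, by how many arrays the brightest probe set of the gene exceeded the floor on. Points are the genes described, solid lines their medians (13, 14 and 21) and dashed lines the medians of all genes in the class (5, 12 and 18). The ranges of the 3 classes overlap.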

How the data were processed

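Per the labels' protocols, sorted LSK cells gave RNA that went through 2 linear amplification steps before hybridisation to an Affymetrix mouse genome array. The deposited signal intensities are linear MAS5 values, as named in the submitters' processing notes without a version. How they were scaled and floored at 30 is not stated. Amplification favours 3′ ends, and the number of arrays limits the precision.

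Signals were taken as log2(signal + 30) and tested with limma 3.58.1 in R 4.3.3 (lmFit and eBayes with a variance trend), with control probe sets and those with a mean signal below the median of 32.6 left out. P-values were adjusted over all 22519 probe sets kept. The fit was tested on simulated data. Arrays of equal number are litter mates per the labels, and after subtracting group means litter mates correlated with r = 0.77, 0.67 and 0.46 in litters 1, 2 and 3, so litter was a block. No 2 arrays held identical values.

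Gene symbols came from the platform annotation (34945 probe sets with 1 symbol, 932 with several and 9160 with none), and gene order and promoters from RefSeq, GRCm38.p6, which held all 41 symbols. A gene is represented by its brightest probe set. Signals of all arrays are given for genes with a called probe set, with groups that do not overlap, at the floor in 1 group and above 60 in the other, or among the 5 with the highest mean signals, and for further genes chosen after their values were seen. The genes, the marker lists and the lists of pathway partners were chosen with earlier results of these data known. Alternatives were other pseudocounts (1 and 100), filters (none, a mean of 100, above the floor on all arrays of a group), scalings (median centring, quantile normalization), no variance trend, no litter term, the mean over probe sets and each litter left out.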

Additional observations from a re-analysis of the deposited data

How the results depend on the processing

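The calls depended on the litter block, the filter and all 3 litters. The 71 higher and 117 lower calls became 0 and 0 with no filter, with no replicate block and in every fit without 1 litter (0 to 0), and so did the 2 lower calls of the genes around Ercc1. Median centring gave 193 higher and 139 lower calls. Lower calls numbered 65 with no variance trend and 73 with quantile normalization. For the genes described, quantile normalization left 1 lower call and median centring gave 1 higher call (Pglyrp1), where there were none. Their median of -0.05 became 0.043 with median centring and 0.022 with quantile normalization. With the stricter filter it was 0.010, over the 7 genes kept in place of 27. It lay between -0.08 and 0 without 1 litter. The count higher in every litter was 8 with median centring and 4 to 7 without 1 litter. The count lower in every litter was 5 to 7 without 1 litter. With the stricter filter it was 1 among the 7 genes kept, so that count is over fewer genes. The Ercc1 difference of -1.36 was not called with no filter (adjusted p = 0.942 by limma), no replicate block (0.9998) or no variance trend (0.0558), and lay between -1.78 and -0.99 without 1 litter.

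Of the 329 values of single genes under alternatives, 288 kept direction and side of the threshold, 27 changed sign, 1 (Zfp296 without litter 2) became 0, 11 lost a call and 2 gained one. The sign changes were all of uncalled differences. With median centring Cd3eap became 0.043, Clptm1 0.031, Ercc2 0.072, Sae1 0.088, Tomm40 0.038 and Trappc6a 0.0082. With quantile normalization Cd3eap became 0.034, Ercc2 0.026 and Sae1 0.022, and with a pseudocount of 1 Vasp became -0.011. Without 1 litter the ranges were -0.22 to 0.078 for Cd3eap, -0.39 to 0.16 for Clasrp, -0.33 to 0.26 for Clptm1, -0.12 to 0.10 for Ercc2, -0.011 to 0.29 for Fosb, -0.28 to 0.062 for Mark4, -0.10 to 0.29 for Mypop, -0.086 to 0.23 for Ppp1r13l, -0.077 to 0.040 for Sae1, -0.24 to 0.16 for Tomm40, -0.39 to 0.092 for Trappc6a, -0.28 to 0.48 for Vasp and 0 to 0.029 for Zfp296. The filter asking for signals above the floor on all arrays of a group was chosen after seeing the data. The floor hides differences among weak genes, and leaving out a litter leaves 2 pairs. The cause of the other changes was not tested.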
